A study of Homo sapiens with 8 samples.

Results

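The cytosolic HSP70 and HSP110 chaperones were followed in RNA sequencing data of HCT116 cells, an established human colon cancer line, and of HCT116 cells in which FBXW7 was knocked out (KO). FBXW7 encodes an F-box protein through which an SCF ubiquitin ligase marks proteins such as MYC and cyclin E for degradation. The genes were taken by their symbols in the deposited count tables, namely HSPA1A, HSPA1B, HSPA1L, HSPA2, HSPA8 and HSPA14 of the HSP70 family, HSPA4, HSPA4L and HSPH1 of the HSP110 family, and HSPBP1, an exchange factor that binds HSP70. They are 10 of the 55075 genes in the tables, and all 10 passed the filter on low counts. The 4 groups held 2 libraries each: KO recovery, KO heat shock, wild-type (WT) recovery and WT heat shock. Every group was heated at 42 °C for 1 h. The heat shock groups were then sampled, and the recovery groups were returned to 37 °C for 2 h before sampling. Unheated cells were not analysed here, so no value below is a change from the resting state. How FBXW7 was disrupted, and whether the KO line is 1 clone, was not stated in the labels. Nothing states that the replicates were separately grown cultures beyond the word biological. The p-values therefore measure the spread between these libraries, estimated with information shared across genes.

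HSP70 chaperones bind exposed hydrophobic stretches of unfolded proteins in a cycle driven by ATP. J-domain proteins (the DNAJ genes) bring clients and stimulate ATP hydrolysis, and exchange factors of the HSP110, BAG and HSPBP1 families release ADP so that the client can leave. HSPA8 is the constitutive cytosolic HSP70, whereas HSPA1A and HSPA1B encode the stress-inducible HSP70, whose transcription is switched on by heat shock factor 1 (HSF1) and ends as free HSP70 accumulates during recovery.

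Total counts were between 15507896 and 34387618 per library. The recovery column of each table was recognised by the order of the names in the deposited comparison alone. The sign of the authors' log2 fold changes shows only which column was divided by the other, so it could not identify recovery. The opposite order would exchange recovery and heat shock in every result. FBXW7 had 314 and 362 counts in KO recovery and 465 and 526 in KO heat shock libraries, against 378 and 366 in WT recovery and 655 and 613 in WT heat shock libraries. On the log2 scale it was lower in KO than in WT cells by an edgeR estimate of -0.68 ± 0.11 at recovery and -1.01 ± 0.10 at heat shock, so transcript remained in the KO libraries. Epithelial markers (EPCAM, CDH1, KRT8, KRT18, KRT19, CDX2 and VIL1) were present in every library, while LGALS4 was at 0 to 2 counts. Blood and mesenchymal lists were low, at summed levels of 16.8 to 30.6 and 11.7 to 15 CPM. These are counts scaled to a common library size with the TMM method of edgeR. CD68, at 294 to 622 counts, made up most of the blood sum, and PTPRC had 0 to 3 counts. In the mesenchymal list COL1A1 had 138 to 220 counts, TWIST1 23 to 158 and VIM 29 to 71. COL1A2, COL3A1, DCN, LUM, PDGFRB and THY1 had 0 to 8. The KO heat shock libraries stood apart in RNA composition: mitochondrial tRNAs took 0.0444% and 0.0431% of their counts, against 0.376% to 0.622% in the 6 other libraries. Processed pseudogenes took 0.321% and 0.234% there, against 0.476% to 0.94% elsewhere. The labels name both poly-A selection and Ribominus depletion without saying which library had which, and the part of RNA composition in the results was not tested.

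Per kilobase of transcript, HSPA8 was the most abundant family member in all 4 groups. It made up 77.1% of the family's summed level in KO recovery, 78.2% in KO heat shock, 81.3% in WT recovery and 86.4% in WT heat shock libraries. HSPA1B ranked second in KO recovery, at 164 and 124 CPM per kilobase, but its libraries overlapped those of HSPA4, the third, at 133 and 122. HSPA1B was the fourth in KO heat shock, at 60.9 and 54.1 CPM per kilobase, and the sixth in WT recovery, at 10.5 and 7.91. In WT heat shock it was the fourth as well, at 85.4 and 47.1 CPM per kilobase; its first library lay between those of HSPH1 (90.3 and 72.1) and of HSPA4 (89.0 and 85.3), and its second below all of them. HSPA2, HSPA1L and HSPA1A filled the last 3 places in every group, at 1.56 CPM per kilobase or less. In all, the family's CPM summed to 6320 and 5293 in KO recovery and 4530 and 4266 in KO heat shock libraries, against 2405 and 2460 in WT recovery and 6921 and 5298 in WT heat shock libraries. The WT recovery libraries thus held the lowest sums, and the KO recovery and WT heat shock sums overlapped. CPM are shares of a library, and in bulk RNA less of a transcript per cell and fewer cells that carry it cannot be told apart.

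**Figure D1:**
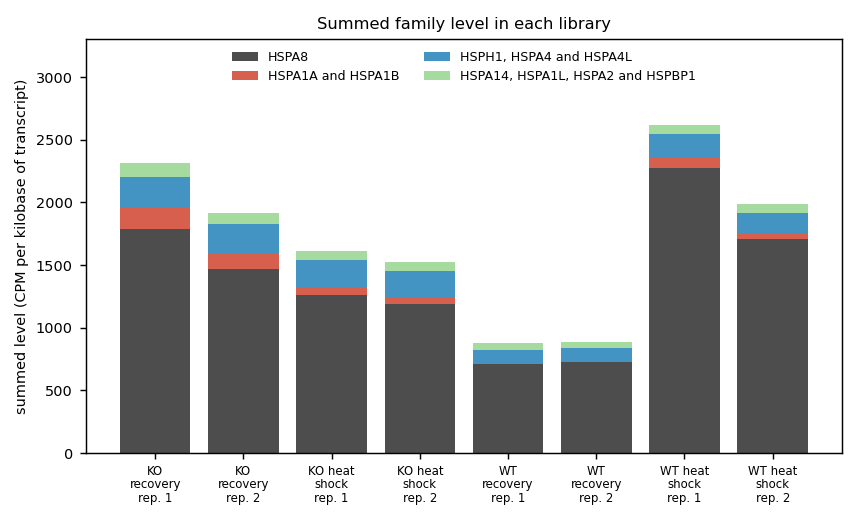
Summed level of the 10 family genes in each of the 8 libraries, in CPM per kilobase of transcript, with bars stacked by member group. HSPA8 fills most of every bar, and the WT recovery bars are the lowest.

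After 2 h of recovery, every member called in KO cells had risen and every member called in WT cells had fallen. In KO cells, HSPA1A, HSPA1B, HSPA8, HSPH1 and HSPBP1 rose relative to heat shock, which is 5 of 10 members, and none fell; 20.6% of all 17471 genes tested rose and 21.1% fell. In WT cells 9 of the 10 members fell and none rose, where 24.8% of all genes tested rose and 26.0% fell. The median log2 fold change of the 10 members was 0.38 in KO cells and -0.96 in WT cells, beside medians over all genes of -0.02 and 0.01. A call here is an adjusted p under 0.05 in the quasi-likelihood test of edgeR, adjusted over all genes tested by the Benjamini-Hochberg method. Tested as an interaction, the recovery response was higher in KO than in WT cells for 9 of 10 members, with 28.5% of all genes higher and 27.8% lower. HSPA1L was the member that did not pass, and 7 to 9 members passed over the alternatives, with HSPA14 and HSPA4 the calls that were lost.

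The members also parted between the lines at recovery and much less at heat shock. At recovery all 10 members were higher in KO than in WT cells, with a median log2 fold change of 1.31. Among all genes tested 31.8% were higher and 31.3% lower. At heat shock, HSPA2, HSPA4, HSPA4L and HSPA14 were higher in KO cells and HSPA8 was lower, beside 27.4% of all genes higher and 28.2% lower. The median over the members was -0.01 there. The 2 comparisons of recovery with heat shock and the 2 comparisons of KO with WT use the same libraries and are not independent of each other. Leaving out the first KO heat shock library, the members' median change in KO recovery was 0.35. Leaving out the first KO recovery library, it was 0.37. The medians over all genes were -0.025 and -0.0013. In these fits, which leave 1 library in a KO group, HSPA8 and HSPH1 no longer passed.

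Base composition moved with these comparisons across the transcriptome. In KO recovery relative to heat shock, the median log2 fold change was -0.30 for 4437 coding genes with a transcript GC content of 36% to 45% and 0.24 for 2865 coding genes at 55% to 62%; in WT recovery these medians were 0.22 and -0.32. Between KO and WT cells at heat shock they were 0.36 and -0.32. For the interaction, KO minus WT, they were -0.51 and 0.57. HSPA4L (38.1% GC), HSPH1 (39.95%), HSPA4 (42.6%), HSPA14 (43.1%) and HSPA2 (43.9%) lie in or near the lower class, HSPA1B (58.8%) and HSPA1A (59.7%) in the upper class, and HSPBP1 (64.7%) above it. With offsets for GC content and transcript length in the same edgeR fit, 7 of 10 members rose in KO recovery and 9 of 10 fell in WT recovery, while at heat shock 3 of 10 differed between the lines, 1 higher and 2 lower in KO cells. In the same fits 3150 of all genes rose and 2881 fell in KO recovery, 3941 rose and 4461 fell in WT recovery, and 4468 were higher and 4594 lower in KO cells at heat shock.

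**Figure D2:**
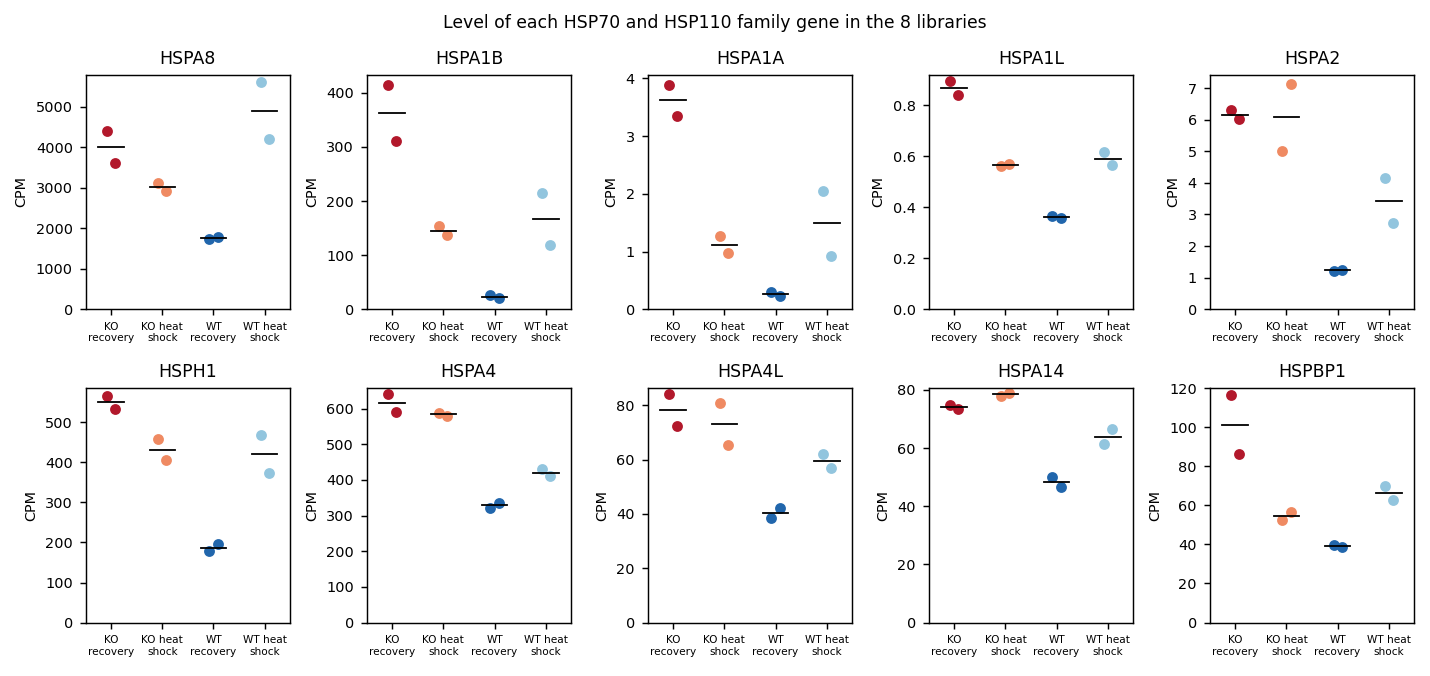
Level of each gene in CPM (linear axes from 0) in KO recovery, KO heat shock, WT recovery and WT heat shock libraries; points are libraries and bars their means. HSPA1B is highest in the KO recovery libraries and lowest in the WT recovery libraries.

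HSPA1B and HSPA1A, the inducible HSP70 pair, showed the widest swings of the family. HSPA1B was at 414 and 312 CPM in KO recovery and at 154 and 136 CPM in KO heat shock libraries, against 26.4 and 19.9 CPM in WT recovery and 215 and 119 CPM in WT heat shock libraries. The recovery libraries were highest of all in KO cells and lowest of all in WT cells, and the heat shock libraries of the lines overlapped. In KO recovery HSPA1B rose 2.48-fold over heat shock (log2 fold change 1.31 ± 0.11, edgeR adjusted p = 2.8e-08). In WT recovery it was 7.01-fold lower than at heat shock (log2 -2.81 ± 0.12, edgeR adjusted p = 1.2e-11). The responses differed by 4.12 ± 0.16 on the log2 scale (edgeR adjusted p = 1.4e-12), and HSPA1B was 15.7-fold higher in KO than in WT cells at recovery (log2 3.97 ± 0.24, edgeR adjusted p = 6.4e-09). At heat shock the lines were not called different, with a log2 fold change of -0.21 ± 0.20 (edgeR adjusted p = 0.411). That comparison turns on the 2 WT heat shock libraries, which differ from each other: without the second, HSPA1B was lower in KO cells (-0.59, edgeR adjusted p = 0.0014), as was HSPA1A (-0.90, edgeR adjusted p = 0.0264). With GC and length offsets the difference of HSPA1B was 0.15 (edgeR adjusted p = 0.501).

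HSPA1A, the near-identical copy beside HSPA1B, had 87 and 88 counts in KO recovery and 34 and 34 in KO heat shock libraries, against 5 and 4 in WT recovery and 40 and 18 in WT heat shock libraries. It took between 0.704% and 1.18% of the counts of the pair in each library, so HSPA1B carried nearly all reads of the pair. Its changes had the same signs, with a log2 fold change of 1.70 ± 0.25 in KO recovery (edgeR adjusted p = 3.5e-05) and -2.42 ± 0.46 in WT recovery (edgeR adjusted p = 2.6e-04). At recovery it was higher in KO than in WT cells by 3.71 ± 0.43 (edgeR adjusted p = 4.1e-06). Of the 50-base windows of the HSPA1A transcript, the length of a read, 72.6% also occur in another annotated gene, and 1766 of 2434 occur in HSPA1B. How reads with several matches were assigned was not stated, so the split of the pair is uncertain. With both copies summed to 1 entry, the log2 fold change was 1.32 in KO recovery and -2.81 in WT recovery.

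HSPA1A (chr6:31815464-31817946) and HSPA1B (chr6:31827735-31830255) lie in the same orientation on the + strand of GRCh38, in the GENCODE annotation. The count tables use the build hg19, and genes were matched by Ensembl identifier; all gene coordinates given are GRCh38. The promoters of HSPA1A, HSPA1B and HSPA8 are shown because heat shock factors bind arrays of the unit nGAAn, and these are the inducible pair and the most abundant member. Capitals mark matches to GAANNTTC or, in HSPA8, to GAANNTTCNNGAA or its other-strand form TTCNNGAANNTTC, which contain GAANNTTC and TTCNNGAA. Each is the 250 bases before the RefSeq start on GRCh38.p14, 5′ to 3′ on the gene's strand, from chr6:31815293-31815542 (+), chr6:31827488-31827737 (+) and chr11:123062137-123062386 (-). RefSeq starts differ from the GENCODE coordinates. The HSPA8 window lies inside its GENCODE gene, and the HSPA1A and HSPA1B windows run into theirs.
HSPA1A: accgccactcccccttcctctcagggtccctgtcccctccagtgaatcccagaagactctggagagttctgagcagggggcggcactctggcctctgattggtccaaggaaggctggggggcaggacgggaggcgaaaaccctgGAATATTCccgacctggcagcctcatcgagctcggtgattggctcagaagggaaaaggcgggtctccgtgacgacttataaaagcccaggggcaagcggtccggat
HSPA1B: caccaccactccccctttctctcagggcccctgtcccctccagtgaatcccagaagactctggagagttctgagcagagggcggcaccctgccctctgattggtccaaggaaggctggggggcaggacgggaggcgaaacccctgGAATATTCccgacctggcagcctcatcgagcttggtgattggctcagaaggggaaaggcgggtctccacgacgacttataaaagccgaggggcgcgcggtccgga
HSPA8: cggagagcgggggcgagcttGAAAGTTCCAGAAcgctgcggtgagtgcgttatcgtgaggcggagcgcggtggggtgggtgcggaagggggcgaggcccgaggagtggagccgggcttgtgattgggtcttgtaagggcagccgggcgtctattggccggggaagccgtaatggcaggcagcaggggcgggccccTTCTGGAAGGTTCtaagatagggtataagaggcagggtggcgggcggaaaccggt
The HSPA1A and HSPA1B windows were identical at 235 aligned bases, 93.6% of the alignment. Each holds 1 match to GAANNTTC, whose first base is at -106 in HSPA1A and -105 in HSPA1B, with TATAAA at -30 and -29 and 2 matches each to CCAAT, on either strand. HSPA8 holds 2 matches to the longer form, whose first bases are at -230 and -55, and no TATAAA. Among 34943 RefSeq promoters of 250 bases searched on both strands, 5.8% hold GAANNTTC, 6.62% hold TTCNNGAA and 11.6% hold at least 1 of them. The longer form was in 0.441%, and 12 promoters, 0.0343%, hold it 2 or more times. TATAAA was in 10.8% and CCAAT in 32%. In the windows of HSPA2, HSPA4, HSPBP1 and HSPH1 these heat shock motifs were not found, and HSPA4L holds TTCNNGAA in 1 of 3 windows. A match is a string of letters and was not tested for binding.

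HSPA1L (chr6:31809619-31815065, - strand), an HSP70 best known from the testis that lies head to head with HSPA1A, was near the limit of detection. It had 20 and 22 counts in KO recovery and 15 and 20 in KO heat shock libraries, against 6 and 6 in WT recovery and 12 and 11 in WT heat shock libraries. Its promoter window (chr6:31815284-31815533) overlaps that of HSPA1A and contains the same GAANNTTC match, at -161 from the RefSeq start of HSPA1L. That start lies upstream of the GENCODE gene given here. Neither recovery comparison passed, with log2 fold changes of 0.61 ± 0.39 in KO cells (edgeR adjusted p = 0.234) and -0.70 ± 0.55 in WT cells (edgeR adjusted p = 0.303). At recovery it was higher in KO than in WT cells (1.25 ± 0.42, edgeR adjusted p = 0.0169), a call lost with DESeq2 (adjusted p = 0.106) and without the first KO recovery library or either WT recovery library (edgeR adjusted p = 0.057 to 0.0988).

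HSPA2 (chr14:64535905-64546173, + strand), an HSP70 needed for meiosis in the mouse testis, was expressed at a low level. Its counts were 141 and 158 in KO recovery and 134 and 251 in KO heat shock libraries, against 20 and 21 in WT recovery and 81 and 53 in WT heat shock libraries. The KO libraries overlapped between conditions, and the WT recovery libraries lay below all others. In KO recovery the log2 fold change was 0.02 ± 0.18 (edgeR adjusted p = 0.945), and in WT recovery HSPA2 fell by 1.46 ± 0.28 (edgeR adjusted p = 3.1e-04). It was higher in KO than in WT cells at recovery (2.32 ± 0.27, edgeR adjusted p = 4.8e-06) and at heat shock (0.84 ± 0.21, edgeR adjusted p = 0.0040). The heat shock call was lost without the second KO heat shock library (0.54, edgeR adjusted p = 0.0811). The antisense gene AL049869.3 overlaps HSPA2 and had 1 to 22 counts per library.

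HSPA8 (chr11:123057489-123063230, - strand), the constitutive HSP70 that also uncoats clathrin vesicles, was at 4410 and 3616 CPM in KO recovery and 3113 and 2932 CPM in KO heat shock libraries, against 1748 and 1780 CPM in WT recovery and 5608 and 4203 CPM in WT heat shock libraries. WT heat shock held the highest library and WT recovery the lowest pair, and KO recovery overlapped WT heat shock. In KO recovery it rose 1.32-fold (0.40 ± 0.12, edgeR adjusted p = 0.0089), but this call was lost with DESeq2 (0.40, adjusted p = 0.352) and without the first KO heat shock library (0.30, edgeR adjusted p = 0.29) or the first KO recovery library (0.33, edgeR adjusted p = 0.203). In WT recovery it was 2.75-fold lower than at heat shock (log2 -1.46 ± 0.12, edgeR adjusted p = 1.9e-08). The interaction was 1.86 ± 0.16 (edgeR adjusted p = 4.0e-08).

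Between the lines HSPA8 changed sign with the condition. It was 2.28-fold higher in KO than in WT cells at recovery (log2 1.19 ± 0.12, edgeR adjusted p = 1.3e-06) and 1.62-fold lower at heat shock (-0.70 ± 0.12, edgeR adjusted p = 2.2e-04). It was the 1 member called lower in KO cells at heat shock. Per kilobase, HSPA8 exceeded HSPA1B by 10.9- and 11.9-fold in KO recovery and 20.8- and 22.0-fold in KO heat shock libraries, against 67.9- and 91.4-fold in WT recovery and 26.7- and 36.2-fold in WT heat shock libraries. The small nucleolar RNAs SNORD14C, SNORD14D and SNORD14E lie in HSPA8 and had 0 to 22 counts each. Of the read-length windows of HSPA8, 15.4% occur in another annotated gene, mostly pseudogenes; HSPA8P1 had 34 and 42 counts in KO recovery and 77 and 136 in KO heat shock libraries, against 59 and 58 in WT recovery and 31 and 14 in WT heat shock libraries, an order unlike that of HSPA8.

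**Figure D3:**
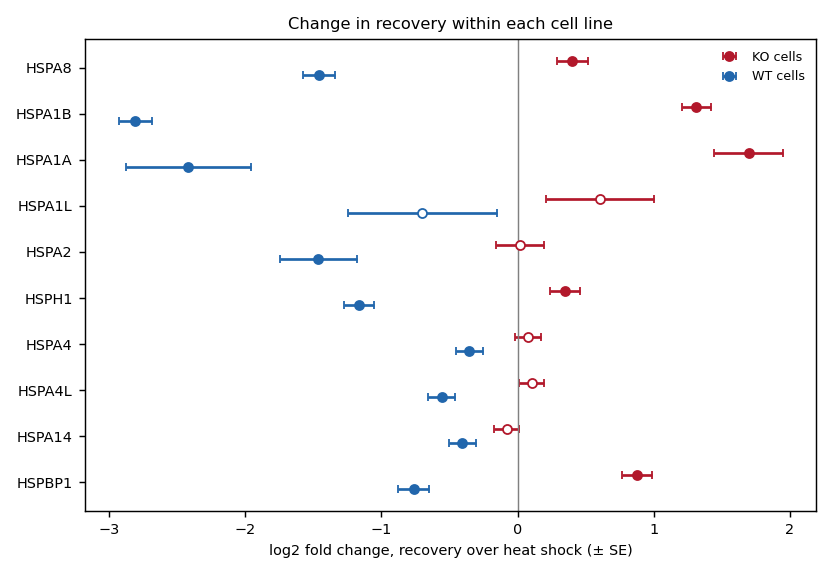
Log2 fold change of each gene in recovery over heat shock in KO and WT cells, with standard errors; filled points passed edgeR at an adjusted p under 0.05. KO points lie to the right of WT points for all 10 genes, with HSPA1B at 1.31 in KO and -2.81 in WT cells.

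HSPH1 (HSP105), HSPA4 (APG-2) and HSPA4L (APG-1) form the HSP110 branch, large HSP70 relatives that act mainly as exchange factors for HSP70 and help it to dissolve aggregates. HSPH1 (chr13:31134974-31162388, - strand), itself heat inducible, was at 567 and 533 CPM in KO recovery and 458 and 406 CPM in KO heat shock libraries, against 178 and 196 CPM in WT recovery and 469 and 374 CPM in WT heat shock libraries. The heat shock libraries of the lines overlapped, whereas at recovery both KO libraries were above both WT libraries. In KO recovery it rose 1.27-fold (0.35 ± 0.11, edgeR adjusted p = 0.015). The rise in KO cells was not called with library totals alone (0.23, edgeR adjusted p = 0.0955) or without any single KO library (edgeR adjusted p = 0.0773 to 0.225), and was 0.75 with GC and length offsets. In WT recovery HSPH1 was 2.24-fold lower than at heat shock (log2 -1.17 ± 0.11, edgeR adjusted p = 1.6e-07).

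HSPH1 was 2.94-fold higher in KO than in WT cells at recovery (log2 1.56 ± 0.11, edgeR adjusted p = 3.2e-08), and its interaction was 1.51 ± 0.16 (edgeR adjusted p = 2.2e-07). At heat shock the log2 difference was 0.04 ± 0.11 (edgeR adjusted p = 0.792); with GC and length offsets HSPH1 was called lower in KO cells there (-0.43, edgeR adjusted p = 0.0058).

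HSPA4 (chr5:133051962-133106449, + strand) had the second highest mean level per kilobase in KO heat shock and in both WT groups. In the first WT heat shock library, however, it lay below HSPH1 (89.0 against 90.3 CPM per kilobase). It was at 643 and 591 CPM in KO recovery and 588 and 581 CPM in KO heat shock libraries, against 323 and 336 CPM in WT recovery and 430 and 412 CPM in WT heat shock libraries. Both KO groups were thus above both WT groups. In KO recovery the log2 fold change was 0.08 ± 0.10 (edgeR adjusted p = 0.566), while in WT recovery HSPA4 fell by 0.35 ± 0.10 (edgeR adjusted p = 0.0056), a call lost with library totals alone (-0.21, edgeR adjusted p = 0.0658). It was higher in KO than in WT cells at recovery (0.91 ± 0.08, edgeR adjusted p = 3.2e-07) and at heat shock (0.47 ± 0.08, edgeR adjusted p = 1.8e-04). With GC and length offsets HSPA4 rose in KO recovery (0.37, edgeR adjusted p = 0.0020), and the heat shock difference was 0.15 (edgeR adjusted p = 0.1). The interaction of 0.43 ± 0.14 (edgeR adjusted p = 0.0126) was lost with library totals alone (0.17, edgeR adjusted p = 0.301) and without any single KO library (edgeR adjusted p = 0.0504 to 0.146).

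HSPA4L (chr4:127781821-127840733, + strand) was at 84.1 and 72.5 CPM in KO recovery and 80.9 and 65.3 CPM in KO heat shock libraries, against 38.6 and 42.1 CPM in WT recovery and 61.9 and 56.7 CPM in WT heat shock libraries. The KO libraries overlapped between conditions, and the WT recovery libraries were the lowest. In KO recovery the log2 fold change was 0.10 ± 0.09 (edgeR adjusted p = 0.390), and in WT recovery HSPA4L fell by 0.56 ± 0.10 (edgeR adjusted p = 1.3e-04). At recovery it was higher in KO than in WT cells by 0.96 ± 0.11 (edgeR adjusted p = 4.7e-06). At heat shock its difference of 0.30 ± 0.11 (edgeR adjusted p = 0.0305) was lost with upper-quartile scaling (0.24) and without any of 4 single libraries, the first KO heat shock (0.14), the second WT heat shock (0.22) and either WT recovery library (0.27), and was -0.13 with GC and length offsets (edgeR adjusted p = 0.33). With those offsets HSPA4L rose in KO recovery (0.55, edgeR adjusted p = 4.3e-05).

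HSPBP1 (chr19:55262231-55280381, - strand), an armadillo-repeat protein that releases nucleotide from HSP70 and inhibits the ligase CHIP, was at 116 and 86.1 CPM in KO recovery and 52.4 and 56.8 CPM in KO heat shock libraries, against 39.4 and 38.4 CPM in WT recovery and 69.7 and 62.7 CPM in WT heat shock libraries. By their means the groups had the same order as for HSPA1B. HSPBP1 rose 1.83-fold in KO recovery (log2 0.87 ± 0.11, edgeR adjusted p = 5.5e-06) and was 1.70-fold lower in WT recovery than at heat shock (-0.76 ± 0.12, edgeR adjusted p = 2.7e-05). The KO rise was 0.51 with GC and length offsets. At recovery it was 2.60-fold higher in KO than in WT cells (log2 1.38 ± 0.12, edgeR adjusted p = 2.9e-07). At heat shock the log2 difference of -0.28 ± 0.12 was not called (edgeR adjusted p = 0.0592). It was 0.12 with GC and length offsets (edgeR adjusted p = 0.299), and HSPBP1 was called lower with upper-quartile scaling (-0.34), with either other filter on low counts (-0.26 and -0.30), with the replicate block (-0.27) and without either KO recovery library or the second WT heat shock library (-0.37 to -0.28).

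HSPA14 (chr10:14838164-14871741, + strand), an HSP70 that works with DNAJC2 in the ribosome-associated complex, had the smallest of the 10 interactions. It was at 74.8 and 73.5 CPM in KO recovery and 77.8 and 79.1 CPM in KO heat shock libraries, against 50.1 and 46.5 CPM in WT recovery and 61.2 and 66.6 CPM in WT heat shock libraries. In KO recovery the log2 fold change was -0.08 ± 0.09 (edgeR adjusted p = 0.510), and in WT recovery HSPA14 fell by 0.40 ± 0.10 (edgeR adjusted p = 0.0018). The WT call was lost without the second heat shock or the second recovery library (edgeR adjusted p = 0.0512 and 0.0528). At recovery HSPA14 was higher in KO than in WT cells by 0.62 ± 0.08 (edgeR adjusted p = 1.7e-05), and at heat shock by 0.30 ± 0.08 (edgeR adjusted p = 0.0066). The heat shock call was lost with GC and length offsets (0.10) and without the second KO heat shock (0.28) or the first WT heat shock library (0.19). Its interaction of 0.32 ± 0.13 (edgeR adjusted p = 0.0455) ranged between 0.06 and 0.58 over the alternatives. It was not called with any other scaling (edgeR adjusted p = 0.0611 to 0.729), with at least 50 counts in 2 libraries (edgeR adjusted p = 0.0834), with DESeq2 (adjusted p = 0.182), without any single KO library, or without the second WT library of either condition (edgeR adjusted p = 0.136 to 0.223). CDNF overlaps HSPA14 on the other strand. Of the read-length windows of HSPA14, 22.2% occur in a second annotated gene of the same symbol. That gene overlaps HSPA14 by 8855 bases on the same strand and has no entry among the counts.

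**Figure D4:**
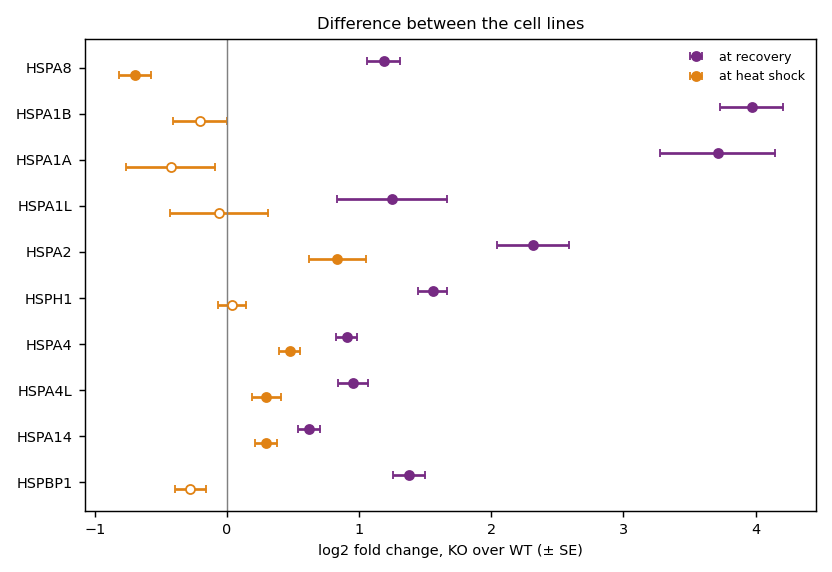
Log2 fold change of each gene in KO over WT cells at recovery and at heat shock, with standard errors; filled points passed edgeR at an adjusted p under 0.05. At recovery all 10 points are above 0, between 0.62 and 3.97, while at heat shock HSPA8 lies lowest at -0.70 and HSPA2 highest at 0.84.

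Among 10 J-domain proteins of the cytosol and nucleus, the partners that load HSP70, 4 rose and none fell in KO recovery, against 1 that rose and 3 that fell in WT recovery; the medians were 0.12 and -0.16. Among all genes tested, 20.6% rose and 21.1% fell in KO recovery, and 24.8% rose and 26.0% fell in WT recovery. DNAJB1 (HSP40), a heat-inducible J-domain protein, rose by 0.67 ± 0.11 in KO recovery and fell by 1.91 ± 0.11 in WT recovery. DNAJA4 rose by 0.91 ± 0.14 in KO cells and fell by 1.06 ± 0.15 in WT cells. DNAJA1, a farnesylated partner of HSPA8, rose by 0.41 ± 0.10 in KO cells and fell by 1.61 ± 0.10 in WT cells, the rise not called without either KO heat shock library or the second KO recovery library (0.35 to 0.47). DNAJB2 rose by 0.54 ± 0.12 in KO recovery, a call not kept in every setting (0.38 to 0.61). In WT recovery DNAJB2 was not called (-0.24 ± 0.12). DNAJC2, the partner of HSPA14, rose in WT recovery (0.48 ± 0.10). At recovery 8 of the 10 were higher in KO than in WT cells and none was lower, with DNAJA1 at 2.46 ± 0.10, DNAJB1 at 2.22 ± 0.15, DNAJA4 at 2.08 ± 0.20 and DNAJB4 at 1.26 ± 0.14. Among all genes 31.8% were higher and 31.3% lower there, and with upper-quartile scaling or library totals DNAJC2 and DNAJC7 were not called (0.14 to 0.20). The interaction of DNAJB4 was -0.20 ± 0.17 (edgeR adjusted p = 0.318). At heat shock 6 were higher and 2 lower in KO cells, beside 27.4% and 28.2% of all genes. DNAJB4 was higher there too, at 0.93 to 1.72 over the settings. With GC and length offsets DNAJA1 (0.13), DNAJA2 (-0.0087) and DNAJB1 (-0.19) were not called there.

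Of the 5 BAG exchange factors, 1 rose and 3 fell in KO recovery, and 1 fell in WT recovery. Beside these, 20.6% of all genes tested rose and 21.1% fell in KO recovery, and 24.8% rose and 26.0% fell in WT recovery. Between the lines, 31.8% of all genes were higher and 31.3% lower in KO cells at recovery, and 27.4% and 28.2% at heat shock. BAG3, which links HSP70 to selective autophagy, was the one that rose in KO recovery (0.84 ± 0.12) and the one that fell in WT recovery (-1.58 ± 0.12). At recovery BAG3 was higher in KO than in WT cells by 2.46 ± 0.18, and 4 of the 5 factors were higher and BAG1 lower (-0.37 ± 0.10). The difference of BAG1 ranged from -0.55 to -0.28 over the alternatives and was not called in at least 1 of them. Among BAG factors that fell in KO recovery, BAG2, an inhibitor of CHIP, was at -0.43 ± 0.09; this was 0.04 with GC and length offsets and was not called without the first KO heat shock or the first KO recovery library (-0.41 and -0.39). The other falls, of BAG4 and BAG5, were not called with those offsets either (0.14 and -0.01), nor without any single KO library (edgeR adjusted p = 0.141 to 0.569). The higher levels of BAG4 and BAG5 at recovery were not called with upper-quartile scaling (0.07 and 0.09) or library totals (0.05 and 0.07), nor without any single recovery library (edgeR adjusted p = 0.0526 to 0.129). At heat shock, 3 of the 5 were higher in KO cells (BAG4 not with the offsets, at 0.01), with BAG2 at 0.87 ± 0.08.

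STIP1 (HOP), which passes clients on to HSP90, and STUB1 (CHIP), the ubiquitin ligase that binds HSP70, had the same signs as HSPA1B in both recovery comparisons. In KO recovery STIP1 rose by 0.43 ± 0.10 and STUB1 by 0.42 ± 0.10; with GC and length offsets these were 0.22 and 0.07 and neither was called, nor were they without the first KO heat shock or the first KO recovery library. In WT recovery STIP1 fell by 0.99 ± 0.11 and STUB1 by 0.88 ± 0.11, and ST13 (HIP), which holds HSP70 in its ADP form, rose by 0.55 ± 0.10. In this list of 5, which also holds HSP90AA1 and HSP90AB1, 2 rose and none fell in KO recovery, against 1 that rose and 4 that fell in WT recovery. The shares of all genes were 20.6% and 21.1% in KO recovery and 24.8% and 26.0% in WT recovery. In KO relative to WT cells, 31.8% of all genes were higher and 31.3% lower at recovery, and 27.4% and 28.2% at heat shock. The WT falls of HSP90AA1 and HSP90AB1 were not called with upper-quartile scaling (-0.19 and -0.20), library totals (-0.14 and -0.15) or at least 50 counts in 2 libraries (-0.23 and -0.24), nor without either KO heat shock library or the first WT library of either condition (edgeR adjusted p of up to 0.441). At recovery 4 were higher and ST13 (-0.47 ± 0.09) lower in KO than in WT cells, with STIP1 at 1.35 ± 0.10 and STUB1 at 0.83 ± 0.12. At heat shock ST13 was higher (0.30 ± 0.09) and STUB1 lower (-0.49 ± 0.12) in KO cells; with GC and length offsets these were -0.07 and -0.09, neither of them called.

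Of the other HSP70s, 6 of 8 passed the filter on low counts. HSPA6, a strictly stress-inducible HSP70, had 5 and 4 counts in KO recovery and 2 and 2 in KO heat shock libraries and 0 in all 4 WT libraries, and HSPA7 had 0 in all 8; a count of 0 allows up to 3. HSPA5 (BiP), the HSP70 of the endoplasmic reticulum, rose in KO recovery (0.61 ± 0.10) and fell in WT recovery (-1.06 ± 0.10). HYOU1, the HSP110 relative of that compartment, rose in KO recovery (0.56 ± 0.11), with an interaction of 0.67 ± 0.15. HSPA9, the mitochondrial HSP70, passed in neither recovery comparison (-0.19 ± 0.10 in KO and 0.10 ± 0.10 in WT cells). In all, 2 of 6 rose and none fell in KO recovery, against 1 that rose (HSPA13) and 1 that fell in WT recovery. Of all genes, 20.6% rose and 21.1% fell in KO recovery, and 24.8% rose and 26.0% fell in WT recovery. In KO relative to WT cells, 31.8% were higher and 31.3% lower at recovery, and 27.4% and 28.2% at heat shock. The WT rise of HSPA13 was lost without the first WT library of either condition (0.08 and 0.09), and was -0.09 with GC and length offsets. At recovery 5 of 6 were higher in KO than in WT cells, with HSPA5 at 1.37 ± 0.08; HSPA9, HSPA12A and HSPA13 were not called there with upper-quartile scaling (0.05, 0.10 and 0.22) or library totals (0.03, 0.08 and 0.20). At heat shock 3 were higher and HSPA5 was lower (-0.30 ± 0.08), a call lost without the second KO heat shock library (-0.29, edgeR adjusted p = 0.0575).

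Of the 3 heat shock factors, 1 rose and 1 fell in KO recovery, against 2 that rose and 1 that fell in WT recovery. The shares of all genes were 20.6% and 21.1% in KO recovery and 24.8% and 26.0% in WT recovery. In KO relative to WT cells, 31.8% of all genes were higher and 31.3% lower at recovery, and 27.4% and 28.2% at heat shock. HSF1, the main activator of HSPA1A and HSPA1B, rose by 0.29 ± 0.10 in KO recovery and fell by 0.41 ± 0.10 in WT recovery; with GC and length offsets these were 0.07 and -0.17 and neither was called, and the KO rise was also lost with DESeq2, with library totals alone and without any single KO library. HSF2 fell in KO recovery (-0.44 ± 0.10), a call lost without any single KO library and with GC and length offsets (-0.18, edgeR adjusted p = 0.11), and rose in WT recovery (0.67 ± 0.11). At recovery HSF1 was not called different between the lines (-0.04 ± 0.10, edgeR adjusted p = 0.729). Its difference ranged from -0.23 to 0.05 over the alternatives and was called in at least 1 of them. HSF2 and HSF4 were lower in KO cells at recovery (-0.50 ± 0.11 and -1.22 ± 0.26). At heat shock HSF1 was lower (-0.75 ± 0.10) and HSF2 higher (0.61 ± 0.11) in KO cells. Transcript levels say nothing of the activity of these factors, which is set largely after translation.

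**Figure D5:**
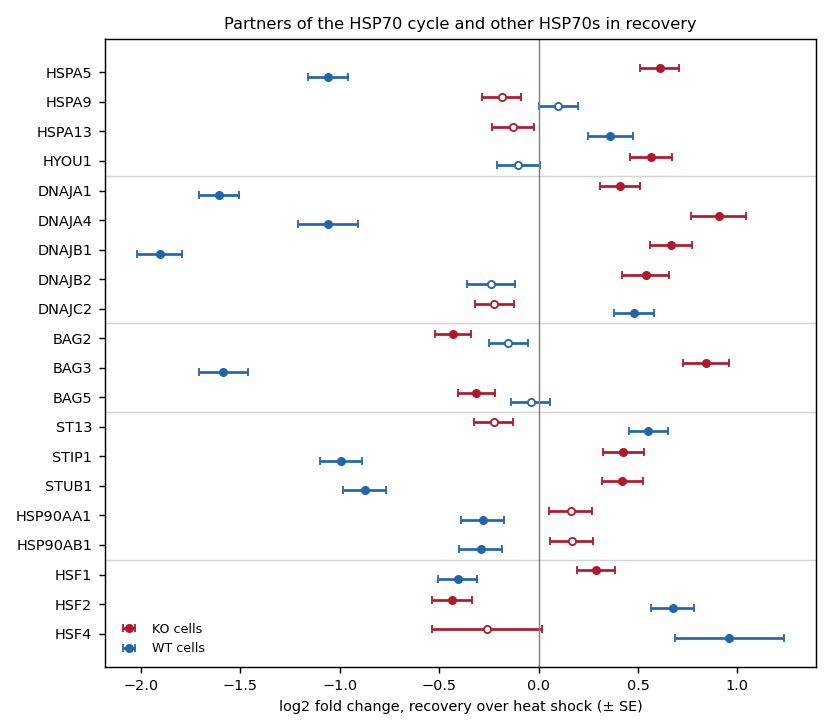
Log2 fold change in recovery over heat shock in KO and WT cells, with standard errors, of 20 other HSP70s, J-domain proteins, BAG factors, linkers and heat shock factors; filled points passed edgeR at an adjusted p under 0.05. BAG3 and DNAJB1 lie right of 0 in KO and far left of 0 in WT cells, and HSF2 has the opposite order.

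Across the 8 libraries, the genes whose log2 CPM ran most closely with HSPA1B were NOL6, ATP2A2, RNMTL1, CLN6 and STIP1 (Pearson r = 0.997 to 0.999 over 8 libraries). Those closest to HSPH1 were SIAH2, ACIN1, AARS2, FTSJ3 and POLR1A (r = 0.995 to 0.998), and those closest to HSPA8 were ZNF653, DLST, SUGP1, BMP7 and PPIL2 (r = 0.994 to 0.996). Within the family HSPH1 ran closest to HSPA1B (r = 0.984), and HSPA8 ran with HSPA1B at 0.87 and with HSPA4 at 0.551. These 8 libraries form 4 groups of 2 and share their scaling, so the values describe the group pattern and carry no test.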

How the data were processed

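RNA was sequenced in 8 libraries as 50-base single reads from strand-specific (dUTP) libraries, per the labels' protocols. CASAVA, TopHat and hg19 are named in the submitters' processing notes; no source used here gives the counting program or whether it used strand. The authors deposited 4 comparison tables whose count columns hold whole, unnormalized reads per Ensembl gene. Each also gives, per the file headers, the authors' normalized log2 fold change, a test score and p-values with q-values. Of these only the sign of the fold change was used, and it does not identify the recovery column. NA was read as 0. No other per-sample column was left unmapped.

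Counts were filtered with filterByExpr (17471 genes kept), scaled by TMM and tested with the quasi-likelihood test of edgeR 4.0.16 in R 4.3.3. All 8 libraries entered each fit. Recovery comparisons and their interaction had the matched pair of the series design text as a block (2 residual degrees of freedom), and KO with WT comparisons had none (4). Standard errors (±) of log2 fold changes were derived from edgeR's F statistics and rest on 2 libraries per group. edgeR draws each gene's variance toward a trend over all genes, so these errors can be narrower than a gene's own replicate spread. HSPA8, for example, changed by -1.68 and -1.24 in the 2 WT pairs, with a printed error of 0.12. CPM use TMM-scaled library sizes. Lengths and GC contents are of the longest GENCODE transcript of each gene on GRCh38. That is 10790 bases for HSPA4L, 5400 for HSPA2, 5191 for HSPH1 and 2463 for HSPA8. The levels, ranks and shares per kilobase and the offsets depend on this choice, and other transcripts were not tried. Read sharing and promoter motifs were searched with Python 3.11.15. Alternatives were RLE, upper-quartile and library-total scaling, no filter and at least 50 counts in 2 libraries, DESeq2 1.42.0, GC and length offsets (for the 16673 genes with both values), the other block setting, each library left out, and both HSPA1 copies summed. The scripts were tested on simulated data. No 2 replicates agreed within sampling noise (chi-square of 2.43 to 19 per degree of freedom). Reads carry no molecular identifiers, so counting floors cover counting error only.

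Named were all 10 members, up to 4 genes per partner list and comparison with the lowest p, the targeted gene, overlapping genes and read sharers, and the 5 genes most correlated with HSPA1B, HSPA8 and HSPH1 (mean count of at least 50, 0.5 CPM added before the log). Members and lists were chosen with earlier results of these data known. Counts of HSPA6 and HSPA7, of low depth, were added after their values were seen.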

Additional observations from a re-analysis of the deposited data

Results flagged for a closer look

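The recovery response differed between KO and WT cells by an interaction test (edgeR, adjusted p under 0.05 over all genes), given as KO minus WT on the log2 scale, for 9 members of the family. HSPA1B differed by 4.12, HSPA1A by 4.12, HSPA8 by 1.86, HSPBP1 by 1.64, HSPH1 by 1.51, HSPA2 by 1.48, HSPA4L by 0.66, HSPA4 by 0.43 and HSPA14 by 0.32. All are positive, so the change in recovery was higher in KO cells. With GC and length offsets the interactions were 3.56 for HSPA1B, 3.525 for HSPA1A, 1.85 for HSPA8, 1.04 for HSPBP1 and 2.20 for HSPH1. They were 1.87 for HSPA2, 1.45 for HSPA4L, 0.92 for HSPA4 and 0.58 for HSPA14. HSPA4 and HSPA14 were not called in several alternatives, down to 0.17 and 0.06 with library totals alone.

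Among partners, DNAJB1 differed by 2.57, BAG3 by 2.43, DNAJA1 by 2.02, DNAJA4 by 1.96, DNAJB2 by 0.78 and DNAJC2 by -0.70. STIP1 differed by 1.42, STUB1 by 1.30, HSP90AB1 by 0.46, HSP90AA1 by 0.44 and ST13 by -0.78. HSPA5 differed by 1.67, HYOU1 by 0.67 and HSPA13 by -0.49. HSF1 differed by 0.70, HSF2 by -1.11 and HSF4 by -1.22. Negative values mean a lower change in KO cells. HSP90AA1 and HSP90AB1 (0.18 and 0.20 with library totals) and HSPA13 and HSF4 (each without the first library of either KO group) were not called in several alternatives, nor were HSF1 (0.24) and DNAJB2 (0.35) with GC and length offsets.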

How the results depend on the processing

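All 10 members kept a positive KO over WT difference at recovery in every alternative that tested them. In KO recovery, 7295 genes were called, against 4801 with DESeq2 and 2838 to 8244 without 1 library; 5 members were called, against 3 to 5 without 1 library. At heat shock 5 members differed between the lines, 3 with GC and length offsets, and 3 to 7 without 1 library. Genes called in the other comparisons without 1 library numbered 6563 to 8699 in WT recovery, 7640 to 9622 for the interaction, 7873 to 9942 at heat shock and 9012 to 12052 at recovery.

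With GC and length offsets, where either value was called, the sign turned for HSPA4L (-0.13), HSPH1 (-0.43), DNAJA2 (-0.0087) and ST13 (-0.066) between the lines at heat shock, for HSPA13 (0.31), BAG2 (0.042) and BAG4 (0.14) in KO recovery, for HSPA13 in WT recovery (-0.091), and for HSPA13 (0.40), DNAJB4 (0.67), BAG2 (0.58) and BAG4 (0.42) in the interaction. Uncalled in both fits, HSPBP1 (0.12), HSPA1B (0.15) and HSPA1L (0.012) turned at heat shock and HSPA14 (0.0043) in KO recovery. BAG3 was not called between the lines at heat shock in the main fit but was in at least 1 alternative. Its difference there ranged from -0.34 to 0.36 without 1 library. The causes were not tested.

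Scaling moved the split of higher and lower genes. In KO recovery it was 3601 and 3694, against 2525 and 5104 with library totals (median -0.14). In WT recovery it was 4334 and 4540, against 5303 and 3686 with upper-quartile scaling (0.10) and 5642 and 3263 with library totals (0.15). For the interaction it was 4979 and 4854, against 4417 and 5530 (-0.14) and 3542 and 6431 (-0.29) with the same scalings, and between the lines at recovery 5562 and 5464, against 4212 and 6852 (-0.18) and 4029 and 6951 (-0.20). At heat shock it was 4781 and 4925, against 4323 and 5527 with upper-quartile scaling (-0.09) and 5376 and 4222 with library totals (0.04).

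Libraries with the same number did not deviate together from their group means (r = -0.0138 in KO and -0.0156 in WT). Without the replicate block 7399 genes were called in KO recovery, 9045 in WT recovery and 9999 for the interaction; with a replicate block between the lines 9656 were called at heat shock and 11013 at recovery. The replicate block changed the call of HSPBP1 at heat shock (-0.27, adjusted p = 0.0444) and of no other member. Of 40 group levels, 16 moved by more than 1 SD with library totals alone. HSPA1A and HSPA1L, at 4 to 88 counts, are limited most by depth.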
